A study of Homo sapiens with 33 samples.

Results

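Expression of the WNT pathway's ligands, receptors, antagonists, feedback targets and nuclear effectors was described in platinum-sensitive and platinum-resistant ovarian carcinoma cell lines. The set was a list of gene symbols, chosen with earlier results of these data known. It held 50 of the 29744 genes in the tables: 19 WNT ligands, 12 receptors (10 frizzled receptors, FZD1 to FZD10, and the co-receptors LRP5 and LRP6), 9 secreted antagonists, 5 feedback targets and 5 nuclear effectors. All 50 symbols were found. Poly(A) RNA was sequenced in 33 libraries from 11 high-grade serous ovarian carcinoma (HGSOC) lines, with 3 replicates per line, and the lines fell into 4 families of shared origin.

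OVCAR3 and OVCAR4 are established HGSOC lines that the study treated as platinum-sensitive. From each, the study derived a pair of independent resistant lines, named ResA and ResB, by repeated short pulses of cisplatin at rising dose, and then kept them without the drug. The PEA lines come from 1 patient and the PEO lines from another; PEA1 and PEO1 are the sensitive lines, and PEA2, PEO4 and PEO6 the resistant ones. Each resistant state is represented by 1 line, and the roles come from the study's text because the labels name only the line and the replicate. The labels do not say that replicates were separate cultures, so p-values measure the spread between these libraries, which may be technical.

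WNT proteins are secreted, lipid-modified ligands that bind a frizzled receptor together with LRP5 or LRP6 at the cell surface. In the canonical branch this stops the destruction of beta-catenin (CTNNB1), which then acts with TCF and LEF factors in the nucleus, and one of the genes switched on is AXIN2, which feeds back to dampen the signal. Other ligands, such as WNT5A and WNT11, are best known for signalling without beta-catenin, and the pathway as a whole is known in the ovary for its part in development and in the growth of some ovarian tumours.

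The promoters of 33 of the 50 genes were found in RefSeq (GRCh38.p14), as 40 windows of 250 bases before and 50 after a transcript start. These windows held a median of 25 CpG dinucleotides, against 14 over all 35116 promoters of the same length. The stretch before the start is printed for WNT7A and WNT10A, the ligands whose mean TPM differed most between lines, with each CpG in capitals. WNT7A (chr3:13880072-13880321, minus strand) held 29 CpG in these 250 bases and WNT10A (chr2:218880602-218880851, plus strand) held 24.
WNT7A: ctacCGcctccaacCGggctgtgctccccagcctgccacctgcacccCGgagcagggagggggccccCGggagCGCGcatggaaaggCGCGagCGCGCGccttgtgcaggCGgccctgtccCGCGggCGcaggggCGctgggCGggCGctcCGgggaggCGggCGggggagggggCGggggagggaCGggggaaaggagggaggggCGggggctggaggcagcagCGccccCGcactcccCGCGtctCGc
WNT10A: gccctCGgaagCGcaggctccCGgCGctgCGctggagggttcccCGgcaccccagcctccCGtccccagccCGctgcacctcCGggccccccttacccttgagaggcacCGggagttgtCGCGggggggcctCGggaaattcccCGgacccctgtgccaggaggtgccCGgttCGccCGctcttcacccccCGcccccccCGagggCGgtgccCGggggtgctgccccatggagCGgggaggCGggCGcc

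The promoters were also searched on both strands for the letters CTTTGAT and CTTTGAA, versions of the sequence that TCF and LEF factors bind. CTTTGAT was in 2.62% of all promoters and in none of the 40 windows of the WNT genes. CTTTGAA was in 4.43% of all promoters and, among the WNT genes, in that of the antagonist DKK1 alone, 95 bases before the start. The match is in capitals in the DKK1 sequence (chr10:52314031-52314280, plus strand). A match describes letters in a window and says nothing about binding.
DKK1: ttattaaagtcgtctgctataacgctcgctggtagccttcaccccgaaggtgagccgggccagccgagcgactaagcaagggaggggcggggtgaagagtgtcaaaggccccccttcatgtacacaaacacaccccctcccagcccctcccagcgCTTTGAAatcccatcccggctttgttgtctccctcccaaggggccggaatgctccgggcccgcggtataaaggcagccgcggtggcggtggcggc

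The libraries held 18.1 to 43.4 M estimated counts, with a median of 30.6 M. Markers of serous ovarian epithelium summed to between 2444 and 7519 TPM (a level scaled for transcript length and library size) in the libraries of 10 lines, but to between 407 and 449.6 TPM in PEA1, and SOX17 was at 0 in every PEO1 and PEO4 library. Means in PEA1 and PEA2 were 14.0 and 575 TPM for EPCAM, 2.95 and 1186 for KRT7, and 1.26 and 204 for CDH1. PAX8 (74.9 and 61.7 TPM) and WT1 (2.32 and 2.25 TPM) were not higher in PEA2. The part of this difference between the PEA lines in the WNT changes of PEA2 was not tested. The 7 fibroblast markers summed to between 69.7 and 116 TPM in PEA1, 0.693 and 1.17 TPM in PEA2, 149.6 and 202 TPM in PEO1, and 84.8 and 129 TPM in PEO4 and PEO6. COL1A1 carried the PEA1 sum (88.4 TPM on average) and THY1 that of PEO1 (172.8 TPM), whereas DCN was at 0 in PEA1 and PEA2. The 5 leukocyte markers summed to between 10.4 and 23.7 TPM in PEA1, 55.2 and 57.6 TPM in PEA2, 30.1 and 35.4 TPM in PEO1, and 23.0 and 33.9 TPM in PEO4. CD68 carried these sums, with means of 18.7, 49.9, 28.8 and 28.3 TPM in that order. In PEA2 PTPRC stood at 3.30 TPM and CD3E at 0. Mitochondrial rRNA took up to 14.8% of counts. It took 5.18%, 14.8% and 12% in the 3 OVCAR4 libraries, 9.23%, 2.02% and 2.09% in OVCAR4 ResA, and 13.1%, 2.47% and 2.39% in OVCAR4 ResB. Of the 33 libraries, 31 were nearest to a library of their own line, and the first replicates of the OVCAR4 derivatives were nearest to each other. In bulk RNA, a lower level in every cell and fewer cells that express a gene cannot be told apart.

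Of the 50 genes, 36 reached a line mean of 1 TPM in at least 1 line, 11 did so in all 11 lines, and 14 stayed under it in every line. Of the ligands, 11 of 19 reached 1 TPM in some line and WNT7B alone did so in all 11, and of the antagonists 4 of 9 reached it in some line. Of the receptors, 6 of 12 (FZD2, FZD5, FZD6, FZD8, LRP5 and LRP6) were present at 1 TPM or more in every line. WNT1, WNT2, WNT3A, WNT4, WNT8A, WNT8B, WNT9B and WNT16 stayed under 1 TPM throughout, as did FZD9, DKK4, SFRP2, SFRP4, SFRP5 and FRZB. Among the antagonists DKK3 alone, a secreted protein of the Dickkopf family whose role in WNT signalling is less settled than that of DKK1, was present in all lines, at 5.67 ± 0.89 TPM (SD, n = 3) in OVCAR4 and up to 87.0 ± 15 TPM (SD, n = 3) in PEA2. ZNRF3, a ubiquitin ligase that removes frizzled receptors from the cell surface, was the one feedback target above 1 TPM in every line.

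**Figure D1:**
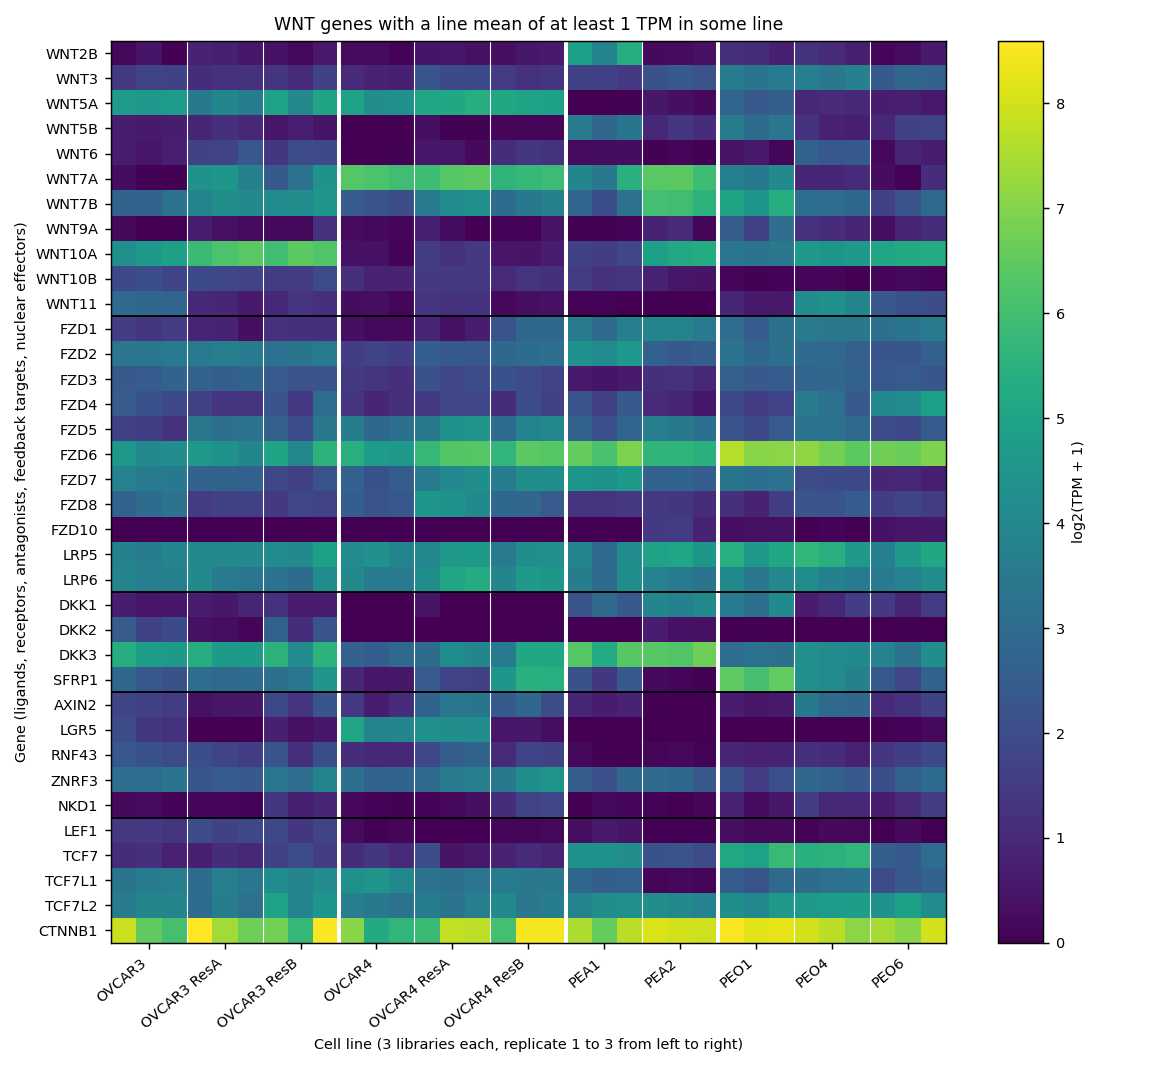
Level of the 36 WNT genes with a line mean of at least 1 TPM in some line (rows, grouped by role) in each of the 33 libraries (columns, 3 per line), coloured by log2(TPM + 1). CTNNB1, FZD6, LRP5 and LRP6 were present in every line, whereas most ligands were high in 1 to 3 families.

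No more than 2 ligands made up most of the ligand RNA in each line. WNT5A and WNT10A, at 24.7 ± 1.3 and 23.4 ± 4.6 TPM (SD, n = 3), together made up 70.3% of the summed ligand TPM of OVCAR3, and WNT7A alone made up 70.9% in OVCAR4. WNT10A led in OVCAR3 ResA (55.4%), OVCAR3 ResB (53.3%), PEO4 (33.5%) and PEO6 (66.7%). WNT7A led in both OVCAR4 derivatives (55.3% in ResA, 52.5% in ResB) and in PEA2 (43.6%). WNT2B led in PEA1 with 38.6% and WNT7B in PEO1 with 36.2%. By mean TPM, the leading ligand stayed WNT7A in both OVCAR4 pairs and changed in the other pairs. The order of WNT5A and WNT10A in OVCAR3 lies within the spread of the libraries, as does that of WNT2B and WNT7A in PEA1, where WNT7A led in replicate 3.

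Resistant lines were then set against the sensitive line they belong with, to ask which WNT genes differed with resistance. DESeq2 (a count model, with the replicate number as a block) was fitted to all genes, and a gene was called at a Benjamini-Hochberg adjusted p under 0.05. Genes with too few counts get no adjusted p, so the counts are of those that do. Because a gene present in only 1 of the lines passes this filter through that line alone, the shares of WNT genes are descriptions and were not tested against all genes.

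In OVCAR3 ResA, 24 of 42 WNT genes were called (57.1%, against 44.9% of all genes tested), 8 higher and 16 lower, against 22.0% and 22.9% of all genes. In OVCAR3 ResB it was 13 of 39 (33.3%, against 7.67%), 7 higher and 6 lower (4.10% and 3.57% of all genes). OVCAR4 ResA had 10 of 31 (32.3%, against 11.9%), 9 higher and 1 lower (6.68% and 5.22% of all genes), and OVCAR4 ResB 11 of 34 (32.4%, against 17.9%), 8 higher and 3 lower (9.09% and 8.77%). The calls of the OVCAR4 pairs leaned to higher levels, and those of OVCAR3 ResA to lower levels.

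PEA2 had the most calls, 29 of 40 (72.5%, against 47.0% of all genes), with 16 higher and 13 lower (23.3% and 23.8% of all genes). PEO4 had 23 of 40 (57.5%, against 33.3%), 12 higher and 11 lower (16.6% and 16.7%). PEO6 had 22 of 39 (56.4%, against 41.4%), 7 higher and 15 lower (21.2% and 20.3%). In all 7 pairs the called share of WNT genes was above that of all genes. The medians that follow were taken over every gene with a fold change, those with few counts and no adjusted p included. The median size of the log2 fold change was also above that of all genes in each pair, from 0.76 against 0.65 in OVCAR4 ResB to 1.87 against 0.89 in PEA2. The median signed change of the WNT genes ran from -0.31 in OVCAR3 ResA (all genes -0.04) to 0.47 in OVCAR4 ResA (all genes 0.04), so no common direction ran through the pairs.

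Over the 7 pairs, 41 of the 50 genes were called at least once, beside 15105 of all 29744 genes, of which 4956 had no counts in any library. Of these, 22 were higher in one pair and lower in another, which is 53.7% of the called WNT genes against 40.7% of the 15105 genes called at least once in the whole table. A further 8 genes were called higher only and 11 lower only. FZD7 and SFRP1 were called in all 7 pairs, each in both directions, and 0 of the 50 genes were called the same way in all 7. How many of all genes were called only higher, only lower or in all 7 pairs was not computed.

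**Figure D2:**
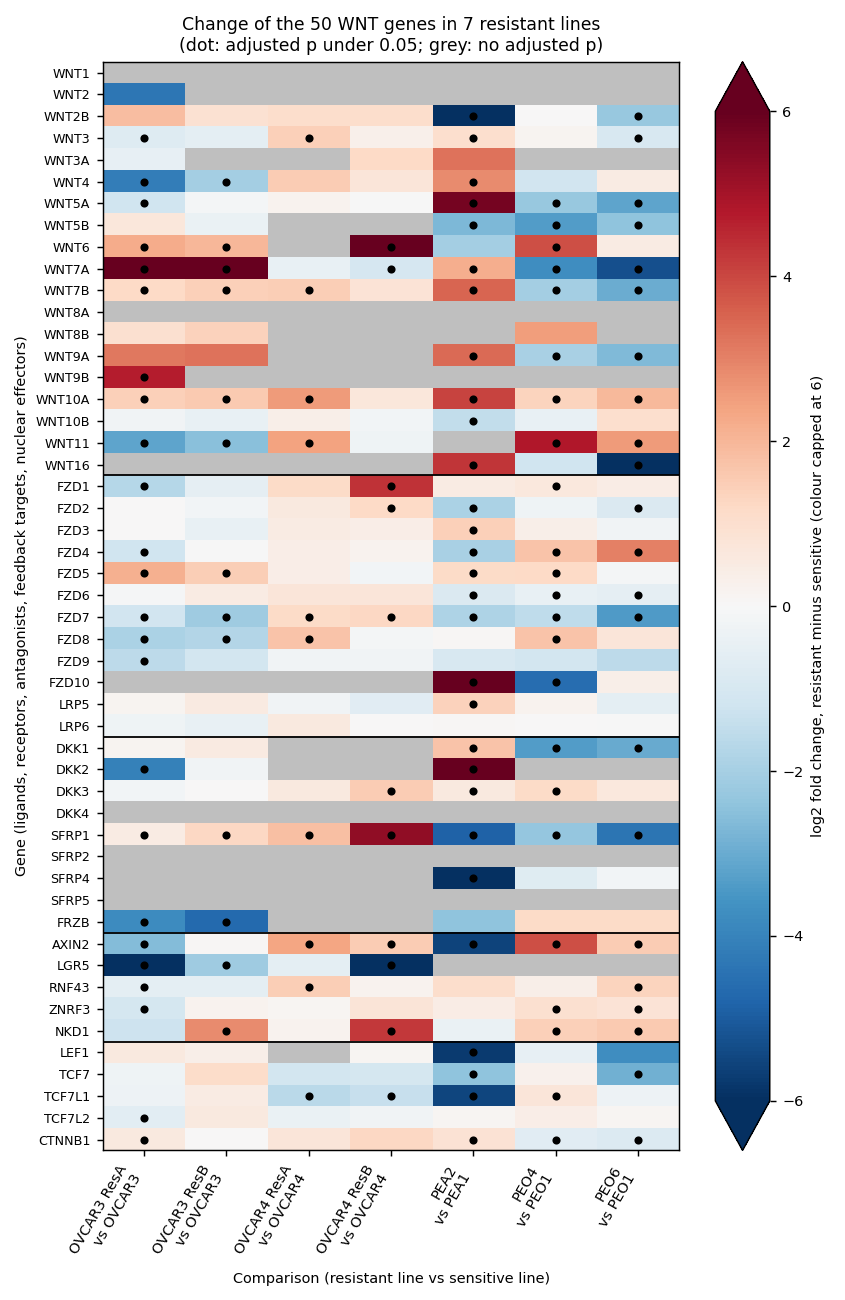
Log2 fold change of the 50 WNT genes (rows, grouped by role) in each of the 7 resistant lines against the sensitive line of its family (columns), with dots for an adjusted p under 0.05 and grey for genes without an adjusted p. WNT10A was higher in 6 of 7 pairs, FZD7 lower in 5 and higher in 2, and SFRP1 higher in 4 and lower in 3.

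Of the 13 ligands with an adjusted p in PEA2, 8 were called higher and 3 lower (23.3% and 23.8% of all genes). In PEO6 it was 2 higher and 8 lower of 13 (21.2% and 20.3% of all genes), and in PEO4 3 and 5 of 14. OVCAR3 ResA had 5 higher and 4 lower of 16, and OVCAR3 ResB 4 and 2 of 13. OVCAR4 ResA had 4 and 0 of 9, and OVCAR4 ResB 1 and 1 of 11. With so few genes, these counts are descriptions. WNT10A, a ligand best known from tooth, hair and skin development (chromosome 2, 218874116 to 218893928), was the WNT gene called higher most often. Its level was 18.7, 23.6 and 27.8 TPM in the 3 OVCAR3 libraries, 57.3, 70.5 and 82.4 TPM in OVCAR3 ResA, and 60.8, 85.2 and 75.1 TPM in OVCAR3 ResB. Every resistant library lay above every OVCAR3 library, with a log2 fold change of 1.44 ± 0.11 (SE, adjusted p 3.86e-35, DESeq2) in ResA and 1.56 ± 0.35 (adjusted p 0.000321) in ResB. The ResB call was lost without replicate 1 or 2.

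In PEA1 WNT10A stood at 2.18, 2.0 and 2.53 TPM, and in PEA2 at 28.1, 35.5 and 38.0 TPM, without overlap. Its change was 4.03 ± 0.26 on the log2 scale (adjusted p 5.63e-52). In PEO1 it stood at 9.47, 8.64 and 9.71 TPM, in PEO4 at 24.2, 21.0 and 23.3 TPM, and in PEO6 at 32.0, 37.3 and 38.5 TPM. The PEO4 change was 1.33 ± 0.20 (adjusted p 5.89e-10) and the PEO6 change 1.93 ± 0.23 (adjusted p 1.48e-15), and PEO6 and PEO4 did not differ by the same test (adjusted p 0.154, log2 difference 0.60 ± 0.30).

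The OVCAR4 family held little WNT10A, with 0.313, 0.336 and 0.0526 TPM in OVCAR4. It was at 1.92, 1.37 and 1.67 TPM in ResA, above all OVCAR4 libraries (log2 2.55 ± 0.82, adjusted p 0.0221), and at 0.446, 0.366 and 0.566 TPM in ResB, where the normalised counts overlapped those of OVCAR4 and the gene was not called (log2 0.67 ± 1.0, adjusted p 0.731). The OVCAR4 ResA call was lost with edgeR, with limma on TPM and without replicate 2 or 3. Seen across families, the PEA2 increase exceeded that of OVCAR3 ResA by 2.62 ± 0.39 on the log2 scale (adjusted p 6.51e-10 over all genes and 18 contrasts between families).

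WNT6 lies beside WNT10A on chromosome 2, and the RefSeq spans of the genes share 118 bases, so reads there could be given to either. WNT6 was called higher in OVCAR3 ResA, OVCAR3 ResB, OVCAR4 ResB and PEO4. Its level was far lower than that of WNT10A, at most 4.63 ± 0.68 TPM (SD, n = 3, PEO4). In PEO6, where WNT10A was high, WNT6 stood at 0.126, 0.844 and 0.585 TPM and fell by 3.44 on the log2 scale from PEO4 (adjusted p 3.02e-07), so the pair of genes did not move together there.

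WNT7A, a ligand of the female reproductive tract that signals in part through beta-catenin (chromosome 3, 13816258 to 13880071), moved in opposite directions in different families. In OVCAR3 it was almost absent, at 0.206, 0.0423 and 0.0424 TPM (7, 1 and 1 counts). It stood at 19.8, 22.7 and 12.3 TPM in OVCAR3 ResA and at 4.44, 8.24 and 20.1 TPM in OVCAR3 ResB. All resistant libraries lay above all OVCAR3 libraries, with log2 changes of 7.29 ± 0.54 (adjusted p 6.06e-40) and 6.42 ± 0.76 (adjusted p 1.14e-14).

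In the PEO family WNT7A was the reverse, at 12.2, 10.1 and 16.1 TPM in PEO1, 0.882, 0.906 and 1.03 TPM in PEO4, and 0.218, 0.0669 and 1.13 TPM in PEO6. Both resistant lines were lower without overlap, by -3.71 ± 0.31 (adjusted p 4.01e-31) and -5.29 ± 0.51 (adjusted p 2.12e-23) on the log2 scale. In PEA1 it stood at 14.4, 9.78 and 43.3 TPM and in PEA2 at 84.2, 84.8 and 60.1 TPM, a rise of 2.18 ± 0.36 (adjusted p 7.41e-09) in spite of 1 high PEA1 library.

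OVCAR4 held WNT7A at 79.4, 70.3 and 61.4 TPM, OVCAR4 ResA at 60.2, 80.1 and 84.9 TPM, and OVCAR4 ResB at 46.7, 51.5 and 58.3 TPM. The ResB libraries lay below those of OVCAR4 (log2 -1.0 ± 0.32, adjusted p 0.0128), a call lost with edgeR, with limma on TPM, with all 33 libraries in one fit and without replicate 2 or 3. ResA was not called (adjusted p 0.371). The change in OVCAR3 ResA exceeded that in PEO6 by 12.2 ± 0.83 on the log2 scale, the widest difference between families among ligands.

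WNT7B, the near relative of WNT7A (chromosome 22, 45920366 to 45977162), changed in the same direction as WNT7A in the OVCAR3, PEA and PEO families. It stood at 5.69, 5.42 and 8.30 TPM in OVCAR3, at 13.6, 17.9 and 16.4 TPM in ResA and at 16.9, 17.7 and 21.5 TPM in ResB, all above the OVCAR3 libraries. In OVCAR4 it stood at 4.51, 3.73 and 3.06 TPM, in OVCAR4 ResA at 10.3, 17.3 and 18.7 TPM, and in OVCAR4 ResB at 7.23, 10.2 and 12.3 TPM. The rise was called in OVCAR3 ResA (log2 1.18 ± 0.16, adjusted p 7.34e-13), OVCAR3 ResB (1.44 ± 0.36, adjusted p 0.00154) and OVCAR4 ResA (1.48 ± 0.34, adjusted p 0.000401). The OVCAR3 ResB call was lost with limma on TPM and without replicate 1 or 2, and the OVCAR4 ResA call with limma and without replicate 2 or 3. The gene was not called in OVCAR4 ResB (0.82 ± 0.35, adjusted p 0.0853), although the libraries did not overlap.

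PEA1 held WNT7B at 5.96, 3.19 and 8.39 TPM and PEA2 at 63.6, 62.0 and 46.3 TPM, a rise of 3.5 ± 0.28 (adjusted p 4.97e-34). PEO1 held it at 31.7, 22 and 39.9 TPM, PEO4 at 7.77, 7.36 and 6.26 TPM, and PEO6 at 2.15, 3.84 and 6.77 TPM. Both PEO derivatives were lower, by -2.06 ± 0.20 (adjusted p 6.23e-24) and -3.00 ± 0.27 (adjusted p 1.91e-27).

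**Figure D3:**
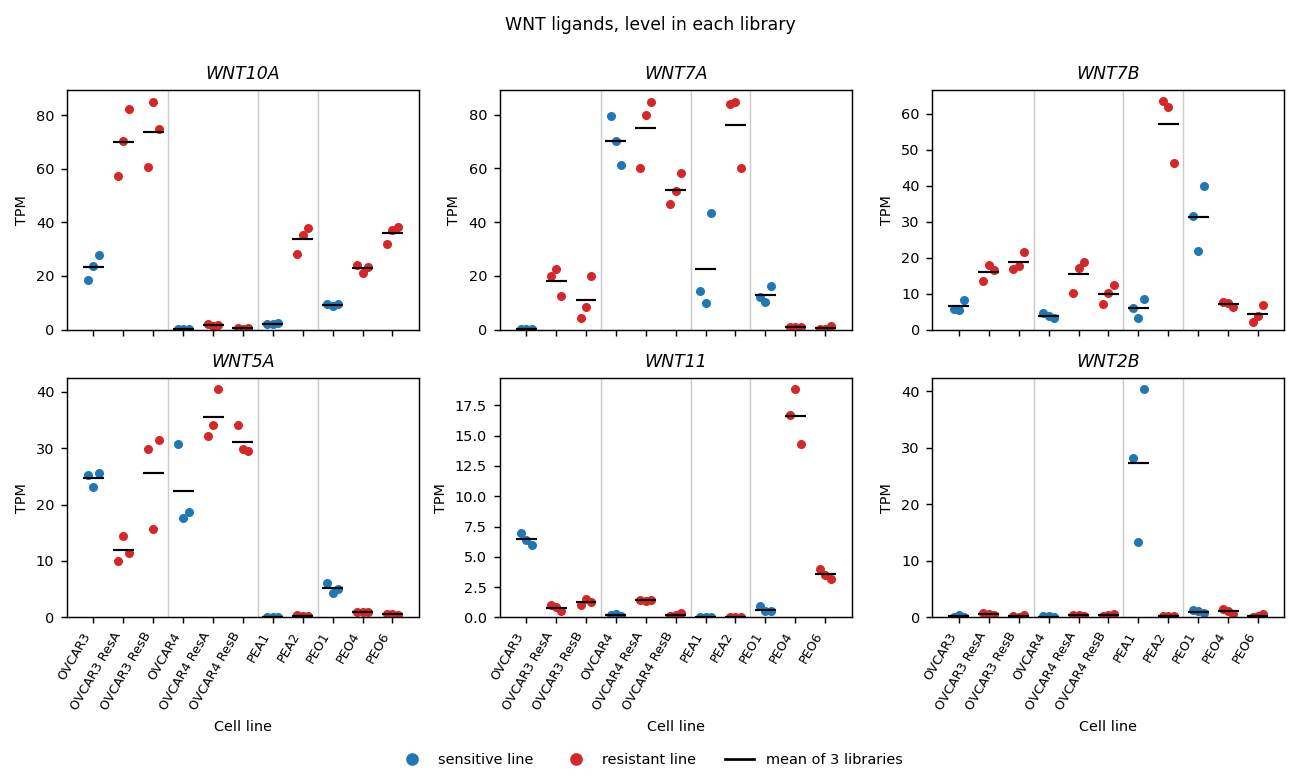
Level in TPM (vertical axis, linear, each panel with its own scale) of WNT10A, WNT7A, WNT7B, WNT5A, WNT11 and WNT2B in each library of the 11 lines (horizontal axis), with blue points for sensitive lines, red for resistant lines and a black bar for the mean of 3 libraries. WNT10A was above its sensitive line in every library of OVCAR3 ResA, OVCAR3 ResB, PEA2, PEO4 and PEO6, whereas WNT7A rose in the OVCAR3 family and fell in the PEO family.

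WNT5A, the best known ligand of the branch without beta-catenin, was high in the OVCAR3 and OVCAR4 families and low in PEA and PEO. OVCAR3 held 25.2, 23.2 and 25.6 TPM and OVCAR3 ResA 10.1, 14.5 and 11.5 TPM, which did not overlap (log2 -1.18 ± 0.13, adjusted p 7.19e-19). OVCAR3 ResB, at 29.8, 15.7 and 31.4 TPM, overlapped OVCAR3 and was not called (adjusted p 0.945). OVCAR4 stood at 30.7, 17.6 and 18.8 TPM, OVCAR4 ResA at 32.2, 34.0 and 40.4 TPM, and OVCAR4 ResB at 34.0, 29.9 and 29.5 TPM. Neither OVCAR4 derivative was called on normalised counts (adjusted p 0.690 and 0.989), where the libraries overlapped.

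In PEO1 WNT5A stood at 6.04, 4.31 and 5.04 TPM, in PEO4 at 1.0, 1.04 and 0.939 TPM, and in PEO6 at 0.567, 0.645 and 0.501 TPM. The falls, of -2.29 ± 0.24 (adjusted p 2.49e-19) and -3.18 ± 0.30 (adjusted p 2.83e-25), were without overlap. In PEA1 the gene had 0, 0 and 2 counts and in PEA2 47, 35 and 20 counts, a call of higher (adjusted p 9.53e-05) between levels that both stayed under 0.5 TPM, which was lost without replicate 1.

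WNT5B, a close relative of WNT5A, was called lower in PEA2, PEO4 and PEO6. PEA1 held 11, 6.21 and 9.25 TPM against 0.936, 1.59 and 1.16 TPM in PEA2 (log2 -2.70 ± 0.37, adjusted p 3.52e-12). PEO1 held 11.4, 7.24 and 9.37 TPM, PEO4 1.40, 0.727 and 0.662 TPM, and PEO6 0.987, 2.23 and 2.32 TPM. The sensitive line stood above the resistant ones in every library, and the falls were -3.34 ± 0.31 (adjusted p 1.87e-25) in PEO4 and -2.41 ± 0.36 (adjusted p 2.99e-10) in PEO6.

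WNT2B was largely a gene of 1 line, at 28.1, 13.3 and 40.3 TPM in PEA1 and under 1.5 TPM in all 30 libraries of the other lines. PEA2 held 0.168, 0.190 and 0.318 TPM, lower by -6.53 ± 0.39 on the log2 scale (adjusted p 8.67e-60). WNT2B is a ligand known from mesenchyme, and of the fibroblast markers COL1A1 (88.4 TPM against 0.879) and PDGFRB (6.55 against 0.0129) were also higher in PEA1 than in PEA2, with DCN at 0 in both lines and COL1A2 under 0.1 TPM in both. Their part in the result was not tested. In PEO6 it was also called lower than in PEO1 (log2 -2.29 ± 0.82, adjusted p 0.0157), a call lost without replicate 1 or 2.

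WNT11, a ligand of cell polarity and movement (chromosome 11, 76186325 to 76210761), fell in OVCAR3 derivatives and rose in PEO derivatives. OVCAR3 held 6.97, 6.38 and 5.98 TPM, OVCAR3 ResA 0.992, 0.897 and 0.546 TPM, and OVCAR3 ResB 1.0, 1.51 and 1.26 TPM. The falls were -3.15 ± 0.31 (adjusted p 6.78e-23) and -2.49 ± 0.48 (adjusted p 9.72e-06), without overlap.

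PEO1 held WNT11 at 0.910, 0.517 and 0.494 TPM, PEO4 at 16.7, 18.8 and 14.3 TPM, and PEO6 at 4.02, 3.53 and 3.16 TPM. The order PEO4, PEO6, PEO1 was without overlap: PEO4 was higher than PEO1 by 4.81 ± 0.32 (adjusted p 2.36e-50), PEO6 by 2.56 ± 0.46 (adjusted p 2.87e-07), and PEO6 was lower than PEO4 by -2.25 ± 0.34 (adjusted p 2.13e-09). In OVCAR4 ResA the gene stood at 1.45, 1.36 and 1.40 TPM, against 0.224, 0.242 and 0.0988 TPM in OVCAR4. That call (log2 2.42 ± 0.87, adjusted p 0.0486) was lost under most alternatives, among them leaving out replicate 1 of ResA, and WNT11 had 0 to 2 counts in every PEA1 and PEA2 library.

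Of the remaining ligands, WNT3 stood between 0.844 TPM (OVCAR4) and 11.2 TPM (PEO4) and was higher in OVCAR4 ResA and PEA2 and lower in OVCAR3 ResA and PEO6. WNT9A was highest in PEO1 at 4.83 ± 2.7 TPM (SD, n = 3), lower in PEO4 and PEO6 and higher in PEA2. WNT10B, present in OVCAR3 at 2.77 ± 0.44 TPM (SD, n = 3), was called lower in PEA2 alone. WNT4, WNT9B and WNT16 had calls at levels under 1 TPM, and WNT1, WNT2, WNT3A, WNT8A and WNT8B had none. WNT9A with WNT3A, WNT10B with WNT1, and WNT3 with WNT9B are neighbours on their chromosomes, 59.1, 6.6 and 14.5 kb apart.

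Among receptors, FZD7 was the one called in all 7 pairs. FZD7, a frizzled receptor studied in stem cells and in ovarian cancer (chromosome 2, 202033855 to 202038441), fell in 5 pairs and rose in 2. OVCAR3 held 13.1, 10.3 and 10.1 TPM, OVCAR3 ResA 5.62, 5.63 and 5.38 TPM, and OVCAR3 ResB 2.65, 2.08 and 3.64 TPM. Sensitive libraries were above resistant ones throughout (log2 -1.14 ± 0.15, adjusted p 8.74e-13, and -2.14 ± 0.35, adjusted p 8.25e-08).

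PEA1 held FZD7 at 22.2, 19.6 and 23.3 TPM and PEA2 at 5.63, 5.83 and 4.91 TPM. PEO1 held it at 9.03, 7.76 and 8.22 TPM, PEO4 at 3.04, 2.82 and 2.71 TPM, and PEO6 at 0.891, 0.937 and 0.631 TPM. The falls were -1.87 ± 0.23 (PEA2, adjusted p 1.60e-14), -1.51 ± 0.22 (PEO4, adjusted p 2.07e-10) and -3.38 ± 0.30 (PEO6, adjusted p 2.57e-27), and PEO6 was also lower than PEO4 (adjusted p 0.000216, but 0.0517 without replicate 2).

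The OVCAR4 family went the other way. OVCAR4 held FZD7 at 5.48, 3.48 and 4.77 TPM, OVCAR4 ResA at 10.5, 15.3 and 18.4 TPM, and OVCAR4 ResB at 11.4, 18.3 and 18.4 TPM, again without overlap. The rises were 1.15 ± 0.33 (adjusted p 0.00689) and 1.23 ± 0.33 (adjusted p 0.00196), and each lost its call without replicate 2 or 3 and with limma on TPM, the ResA one also with edgeR. In each derivative the lowest FZD7 library was replicate 1, the library with the highest mitochondrial rRNA of its line, and the part of that share in the result was not tested. The change in OVCAR4 ResB exceeded that in PEO6 by 4.57 ± 0.20 on the log2 scale (adjusted p 5.04e-107).

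FZD4, the receptor for the ligand Norrin as well as for WNTs, was highest in PEO6. PEO1 held 2.70, 1.97 and 2.34 TPM, PEO4 11, 8.19 and 4.37 TPM, and PEO6 15.0, 17.3 and 27.6 TPM. The 3 lines did not overlap, and the rises over PEO1 were 1.70 ± 0.23 (adjusted p 1.17e-12) and 3.04 ± 0.25 (adjusted p 5.14e-33). FZD4 fell in OVCAR3 ResA (log2 -1.18 ± 0.19, adjusted p 2.03e-09) and in PEA2 (-1.96 ± 0.35, adjusted p 1.51e-07).

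FZD1 stood out in OVCAR4 ResB, at 3.61, 6.39 and 6.30 TPM against 0.284, 0.130 and 0.139 TPM in OVCAR4 and 0.849, 0.294 and 0.60 TPM in OVCAR4 ResA. ResB was higher than OVCAR4 by 4.32 ± 0.48 (adjusted p 8.51e-17) and higher than ResA by 3.24 ± 0.40 (adjusted p 3.31e-14), so the rise separated the 2 derivatives of one line. FZD8 did the reverse: it was at 19.7 ± 3.0 TPM (SD, n = 3) in OVCAR4 ResA, 5.70 ± 0.98 TPM in ResB and 4.20 ± 0.70 TPM in OVCAR4. FZD8 also fell in both OVCAR3 derivatives, from 7.09 to 2.10 and 2.22 TPM.

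FZD5 was called higher in OVCAR3 ResA, OVCAR3 ResB, PEA2 and PEO4 and lower in none of the 7 pairs. In OVCAR3 it stood at 2.17, 2.01 and 1.33 TPM and in OVCAR3 ResA at 9.55, 7.94 and 8.74 TPM (log2 2.12 ± 0.18, adjusted p 3.47e-31). FZD6, the receptor with the highest level, ranged from 18.7 TPM in OVCAR3 to 155 TPM in PEO1 and fell in PEA2 (log2 -0.85), PEO4 (-0.45, with overlapping libraries) and PEO6 (-0.52). FZD10 was at 0 in every PEA1 library and had 276 counts over the 3 PEA2 libraries, at least 28.9-fold higher against a floor of 3 counts per library, yet its level there was 1.46 ± 0.60 TPM (SD, n = 3). The co-receptors had few calls: LRP6 was called in 0 of 7 pairs and LRP5 in PEA2 alone (log2 1.37, adjusted p 9.07e-06).

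Of the antagonists, SFRP1 was called in all 7 pairs, higher in the 4 lines selected with cisplatin in culture and lower in PEA2, PEO4 and PEO6. SFRP1 is a secreted decoy that binds WNT proteins (chromosome 8, 41261962 to 41309473). PEO1 held 86.9, 66.2 and 91.9 TPM, PEO4 18.8, 16.7 and 12.4 TPM, and PEO6 4.21, 2.52 and 5.61 TPM. The 3 lines were fully separated, with falls of -2.33 ± 0.18 (adjusted p 1.38e-37) and -4.39 ± 0.24 (adjusted p 4.79e-70). In PEA1 it stood at 3.40, 1.64 and 4.43 TPM and in PEA2 at 0.154, 0.102 and 0.0369 TPM (log2 -4.84 ± 0.52, adjusted p 2.19e-19).

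OVCAR4 held SFRP1 at 0.910, 0.442 and 0.461 TPM, OVCAR4 ResA at 4.50, 2.32 and 2.27 TPM, and OVCAR4 ResB at 21.7, 42.6 and 42.2 TPM. These lines were also separated, with rises of 1.82 ± 0.45 (adjusted p 0.00131) and 5.31 ± 0.39 (adjusted p 3.61e-39). The ResA call was lost without replicate 2 or 3. In OVCAR3 it stood at 6.5, 4.16 and 3.39 TPM, in OVCAR3 ResA at 7.61, 6.88 and 6.99 TPM, and in OVCAR3 ResB at 7.93, 9.28 and 21.2 TPM. The OVCAR3 rises were small, 0.51 ± 0.18 (adjusted p 0.0137) and 1.25 ± 0.40 (adjusted p 0.0294), and were lost in several alternatives, the ResB one also without replicate 3 of ResB. The change in OVCAR4 ResB exceeded that in PEA2 by 10.2 ± 0.57 on the log2 scale (adjusted p 7.68e-70).

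DKK1, which blocks LRP5 and LRP6, was expressed in PEA and PEO and was under 1.5 TPM in every library of the OVCAR3 and OVCAR4 families. PEA1 held 3.69, 6.78 and 4.31 TPM and PEA2 14.3, 12.8 and 16.0 TPM, a rise of 1.71 ± 0.35 (adjusted p 4.55e-06). PEO1 held 10.9, 8.11 and 16.2 TPM, PEO4 0.570, 0.983 and 1.94 TPM, and PEO6 1.68, 0.918 and 1.84 TPM. The PEO derivatives were lower without overlap, by -3.35 ± 0.34 (adjusted p 9.10e-22) and -3.01 ± 0.34 (adjusted p 5.12e-17).

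DKK2 was present mainly in OVCAR3 and OVCAR3 ResB. It stood at 4.50, 2.22 and 2.81 TPM in OVCAR3, at 0.316, 0.253 and 0.0776 TPM in OVCAR3 ResA and at 5.32, 1.19 and 3.67 TPM in OVCAR3 ResB. The fall in ResA was -4.07 ± 0.39 (adjusted p 1.79e-23), whereas ResB overlapped OVCAR3 (adjusted p 0.920). DKK3 rose in OVCAR4 ResB (log2 1.51, adjusted p 0.000371), PEA2 (0.57, adjusted p 0.0407) and PEO4 (1.15, adjusted p 7.46e-07). FRZB, another decoy, fell in both OVCAR3 derivatives from 0.835 ± 0.26 TPM (SD, n = 3), and SFRP4 was at 0 in every PEA2 library against 88 counts over the 3 PEA1 libraries.

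**Figure D4:**
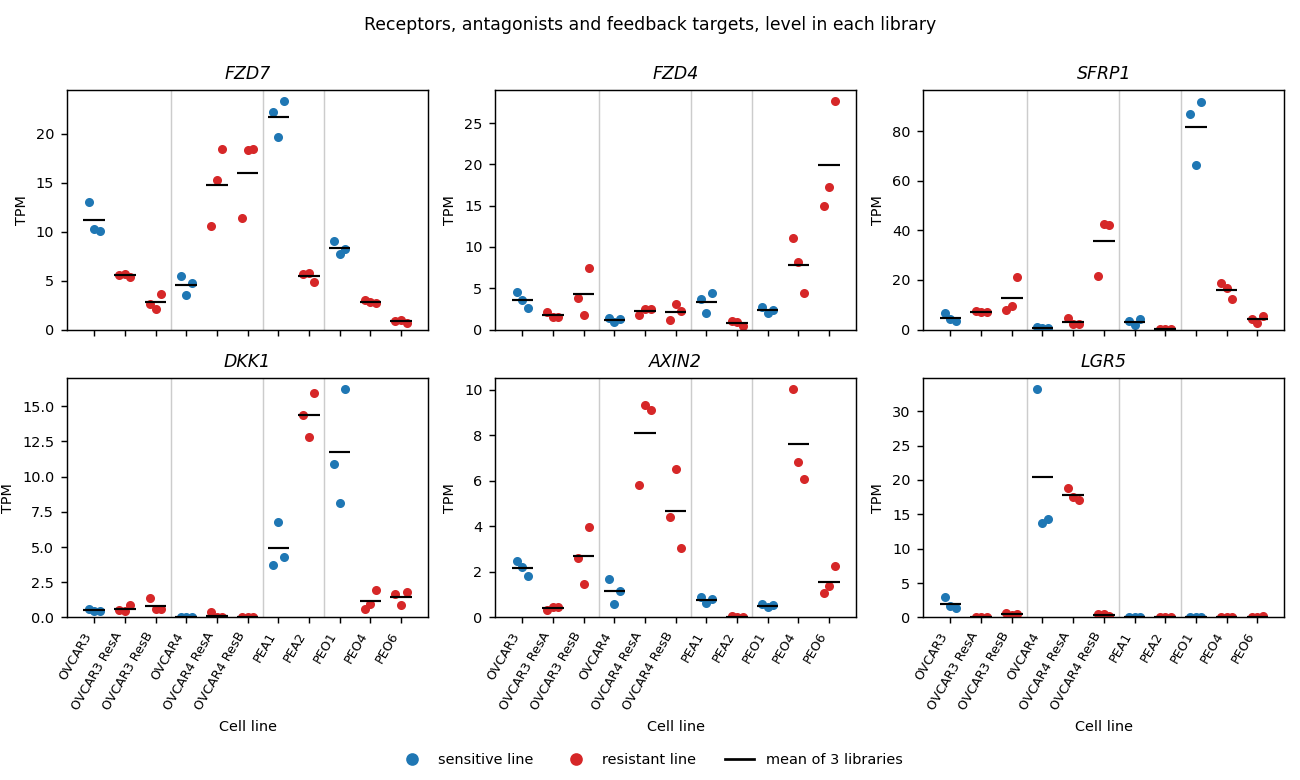
Level in TPM (vertical axis, linear, each panel with its own scale) of the receptors FZD7 and FZD4, the antagonists SFRP1 and DKK1 and the feedback targets AXIN2 and LGR5 in each library of the 11 lines (horizontal axis), with blue points for sensitive lines, red for resistant lines and a black bar for the mean of 3 libraries. FZD7 was lower in the resistant lines of 3 families and higher in those of OVCAR4, and LGR5 was highest in OVCAR4 and OVCAR4 ResA.

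The feedback targets were called in both directions. AXIN2, the target most often read as a sign of beta-catenin activity (chromosome 17, 65528563 to 65561648), was higher in 4 resistant lines and lower in 2. PEO1 held 0.573, 0.445 and 0.542 TPM, PEO4 10.0, 6.83 and 6.08 TPM, and PEO6 1.07, 1.37 and 2.26 TPM. The 3 lines were separated, with rises of 3.88 ± 0.27 (adjusted p 1.93e-44) and 1.5 ± 0.44 (adjusted p 0.00282). The PEO6 call was lost without replicate 2 or 3 (adjusted p up to 0.157).

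In OVCAR4 AXIN2 stood at 1.71, 0.574 and 1.15 TPM, in OVCAR4 ResA at 5.83, 9.32 and 9.12 TPM, and in OVCAR4 ResB at 4.43, 6.51 and 3.07 TPM. Both derivatives were above OVCAR4 in every library, by 2.38 ± 0.43 (adjusted p 2.64e-06) and 1.52 ± 0.49 (adjusted p 0.0154). The ResB call was lost with edgeR, with limma on TPM and without replicate 2 or 3. OVCAR3 held 2.48, 2.22 and 1.84 TPM, OVCAR3 ResA 0.310, 0.437 and 0.457 TPM, and OVCAR3 ResB 2.63, 1.46 and 3.98 TPM.

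AXIN2 thus fell in OVCAR3 ResA (log2 -2.59 ± 0.34, adjusted p 2.35e-13) but not in ResB, whose libraries overlapped OVCAR3 (0.09 ± 0.43, adjusted p 0.965). ResB was higher than ResA by 2.68 ± 0.50 (adjusted p 3.09e-06). PEA1 held 0.902, 0.628 and 0.827 TPM and PEA2 0.0425, 0.0112 and 0 TPM (3, 1 and 0 counts), a fall of -5.57 ± 1.0 (adjusted p 1.60e-07). WNT7A, WNT7B and WNT10A, described above, rose in the same line.

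LGR5, a receptor for R-spondins and a marker of stem cells in the gut, was present in the OVCAR3 and OVCAR4 families and had at most 12 counts in any PEA or PEO library. OVCAR4 held 33.2, 13.7 and 14.3 TPM, OVCAR4 ResA 18.8, 17.6 and 17.1 TPM, and OVCAR4 ResB 0.429, 0.465 and 0.240 TPM. ResA overlapped OVCAR4 (log2 -0.58 ± 0.31, adjusted p 0.230), whereas ResB was lower by -6.24 ± 0.39 (adjusted p 7.99e-56). OVCAR3 held 3.02, 1.63 and 1.38 TPM, OVCAR3 ResA had 0, 0 and 1 counts, and OVCAR3 ResB stood at 0.677, 0.321 and 0.454 TPM. Both fell (log2 -8.76 ± 1.2, adjusted p 8.85e-12, and -2.15 ± 0.50, adjusted p 0.000434), and the size of the ResA change rests on 1 count. The ResB call was lost with limma on TPM and without replicate 1 or 2.

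NKD1, an inhibitor of dishevelled that the pathway induces, was called higher in OVCAR3 ResB, OVCAR4 ResB, PEO4 and PEO6 and lower in none of the 7 pairs. It was low throughout, at most 2.05 ± 0.77 TPM (SD, n = 3) in OVCAR4 ResB against 0.0744 ± 0.059 TPM in OVCAR4 (log2 4.27, adjusted p 4.08e-11). RNF43, a partner of ZNRF3, was higher in OVCAR4 ResA and PEO6 and lower in OVCAR3 ResA. ZNRF3 was higher in PEO4 and PEO6 and lower in OVCAR3 ResA. Of the 4 feedback targets with an adjusted p, 3 were called higher in PEO4 (16.6% of all genes) and 4 in PEO6 (21.2% of all genes). In OVCAR3 ResA 4 of 5 were called lower, against 22.9% of all genes. With so few genes, these counts are descriptions.

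Of the nuclear effectors, TCF7L1, which mostly acts as a repressor, was nearly lost in PEA2. PEA1 held 6.39, 5.01 and 5.41 TPM and PEA2 0.120, 0.138 and 0.0835 TPM (log2 -5.50 ± 0.49, adjusted p 1.50e-27). In OVCAR4 it stood at 18.7, 20.9 and 15.2 TPM, in ResA at 8.36, 8.04 and 9.26 TPM, and in ResB at 10.7, 9.84 and 9.78 TPM. Both OVCAR4 derivatives were lower without overlap (-1.59 ± 0.35, adjusted p 0.000164, and -1.39 ± 0.36, adjusted p 0.00179), but each call was lost with limma on TPM and without replicate 2 or 3. TCF7 fell in PEA2 (log2 -2.40, adjusted p 1.76e-19) and from 40.1 ± 13 TPM in PEO1 to 5.62 ± 1.6 TPM in PEO6 (-2.86, adjusted p 1.66e-32), but not in PEO4, at 45.6 ± 3.2 TPM (SD, n = 3).

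CTNNB1, beta-catenin itself, was abundant in every line but uneven between replicates. OVCAR4 held 133, 37.1 and 49.2 TPM, OVCAR4 ResA 57.5, 222 and 214 TPM, and OVCAR4 ResB 64.1, 356 and 356 TPM. In the OVCAR4 family the libraries with over 9% mitochondrial rRNA were the lowest in CTNNB1. Within each line of the OVCAR3 family CTNNB1 was also lower where that share was higher. OVCAR3 held 239, 89.3 and 65.5 TPM at 2.39%, 4.93% and 7.52%. OVCAR3 ResA held 386, 170 and 102 TPM at 1.86%, 3.79% and 5.57%, a lower share than OVCAR3 in each replicate. OVCAR3 ResB held 108, 51.4 and 374 TPM at 5.97%, 8.88% and 1.12%. The part of that share in the gene's level and calls was not tested. CTNNB1 was called higher in OVCAR3 ResA (log2 0.60, adjusted p 1.14e-08) with overlapping libraries and in PEA2 (0.87, adjusted p 0.000875). It was called lower in PEO4 (-0.69, adjusted p 0.000222) and PEO6 (-0.83, adjusted p 0.00229). LEF1 and TCF7L2 had 1 call each, lower in PEA2 and in OVCAR3 ResA.

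Resistant lines of one family were compared directly, since they share no library. OVCAR3 ResB against OVCAR3 ResA had 8 of 38 WNT genes called (21.1%, against 13.5% of all genes), 8 higher and 0 lower (7.47% and 6.04% of all genes). AXIN2, LGR5, ZNRF3 and NKD1, 4 of the 5 feedback targets, were among those higher in ResB, together with WNT5A, FZD4, DKK2 and TCF7L2. The FZD4 call was lost in 6 of 10 alternatives (among them without replicate 3 of ResB alone), the WNT5A call in 4 of 10, and the LGR5 call without replicate 1. The DKK2 difference was 3.93 ± 0.58 on the log2 scale (adjusted p 1.00e-09).

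OVCAR4 ResB against OVCAR4 ResA had 20 of 35 called (57.1%, against 32.8% of all genes), 8 higher and 12 lower (16.2% and 16.5%). SFRP1 (log2 3.54 ± 0.56), FZD1 (3.24 ± 0.40) and NKD1 (4.13 ± 0.43) were higher in ResB, and LGR5 (-5.65 ± 0.26), WNT11 (-2.62 ± 0.68) and WNT10A (-1.88 ± 0.50) were lower. The WNT11 call was lost without replicate 2 and the WNT10A call without replicate 2 or 3. PEO6 against PEO4 had 13 of 37 called (35.1%, against 18.2%), 2 higher and 11 lower (9.86% and 8.33%). The 2 higher in PEO6 were FZD4 (1.33 ± 0.36, adjusted p 0.00252, lost with limma on TPM and without replicate 2) and FZD10, and among those lower were TCF7 (-3.14 ± 0.30), WNT6, AXIN2 (-2.39 ± 0.37) and SFRP1 (-2.06 ± 0.34).

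With the line as the unit, the 7 resistant lines were tested against the 4 sensitive ones on counts summed per line, with family as a covariate. The test treats lines as independent within a family. In the OVCAR3, OVCAR4 and PEO families 2 resistant lines share 1 sensitive line. The paper also says that PEO4 and PEO6 are thought to come from a shared clone. Of the 50 genes, 1 was called, against 0.286% of all genes (0.130% higher, 0.155% lower). This was WNT10A, higher by 2.03 ± 0.50 on the log2 scale (adjusted p 0.0298, DESeq2). By the sign of the fold change WNT10A was higher in 7 of 7 pairs, of which 6 were called. OVCAR4 ResB was not called. The line-level call of WNT10A was not kept by edgeR's quasi-likelihood test (adjusted p 0.979), without replicate 3 (0.0691), without the OVCAR3 family (0.111) or without the PEA family (0.0575). With edgeR 0 of all 24668 genes tested were called, the 50 WNT genes included, and 4 of the 50 had an unadjusted p under 0.05. DESeq2 found 5 genes at an unadjusted p under 0.05: WNT10A, WNT6 and FZD5 higher, and FZD9 and FZD7 lower. Apart from WNT10A none was called, with DESeq2 adjusted p of 0.456 (WNT6), 0.630 (FZD5), 0.565 (FZD9) and 0.649 (FZD7). The share of all genes at an unadjusted p under 0.05 was not computed, so these counts are descriptions.

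The changes of WNT genes in different families were compared in 18 contrasts between pairs that share no library. Of 900 member contrasts, 387 were called (43%), against 23.0% over all genes. Genes with few counts were kept in these tests, so the shares are descriptions.

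Other genes of the pathway, 54 in all, were read in the same fits. Over the 7 pairs they had 80 calls of higher and 60 of lower in 378 combinations, beside 67 and 65 in the 350 combinations of the 50 WNT genes. Of these combinations, 37 of the 378 and 85 of the 350 had no adjusted p, so the counts do not compare directly. WLS, the carrier that WNT proteins need to leave the cell, stood at 43.2, 25.0 and 49.8 TPM in PEA1 and at 0.609, 0.444 and 0.239 TPM in PEA2. The WLS change there was -6.33 ± 0.36 on the log2 scale (adjusted p 1.25e-66), without overlap. WLS was also lower in OVCAR3 ResA, at 25.3, 25.2 and 25.1 TPM against 101, 96.6 and 107 TPM in OVCAR3 (-2.15 ± 0.11, adjusted p 1.85e-87), and was called in none of the other pairs. PEA2 and OVCAR3 ResA were also the pairs in which WNT7A, WNT7B and WNT10A were called higher while AXIN2 was called lower. Whether the level of WLS had a part in this was not tested. PORCN, listed here with WLS under ligand secretion, had a called rise in both lines. Its mean was 49.55 TPM in PEA2 against 6.81 TPM in PEA1, and 11.4 TPM in OVCAR3 ResA against 4.83 TPM in OVCAR3. Both OVCAR4 derivatives also had a called rise of PORCN, and PEO4 a called fall.

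APCDD1, a surface inhibitor of WNT signalling that is itself a target, was called higher in OVCAR3 ResA, OVCAR3 ResB, PEO4 and PEO6. It stood at 0.612, 0.685 and 0.218 TPM in PEO1, at 21.1, 19.1 and 15.6 TPM in PEO4 and at 14.7, 16.8 and 24.3 TPM in PEO6 (log2 5.27 ± 0.33 and 5.20 ± 0.39). CD44, a hyaluronan receptor listed here as a target of the pathway, was called in all 7 pairs, higher in 5 and lower in PEO4 and PEO6. BMP4 and TNFRSF19 were called in 6 pairs each, BMP4 higher in 5 and lower in PEA2, and TNFRSF19 higher in the OVCAR4 derivatives and lower in OVCAR3 ResA, PEA2, PEO4 and PEO6. In the test with the line as the unit, DESeq2 called 1 of these 54 genes, APCDD1 (adjusted p 0.00388), against 0.286% of all genes. With edgeR 0 of all 24668 genes were called, so the APCDD1 call was lost there. APCDD1 had 0 counts in every library of OVCAR4 and OVCAR4 ResB.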

How the data were processed

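The study sequenced poly(A) RNA from 33 libraries of 11 cell lines. The authors quantified reads against GRCh38 with Salmon inside an nf-core RNA-seq workflow. They deposited gene-level estimated counts (88.4% of values whole) and TPM, a level scaled for transcript length and library size, with no further normalisation of the counts. Whether counting used strand is not given in the sources used here. Depth was 18.1 to 43.4 M counts per library, so a gene with fewer than about 10 counts was measured coarsely.

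Counts were rounded to whole numbers. The test was DESeq2 1.42.0 (R 4.3.3, Wald) on the 6 libraries of a comparison with replicate number and line as terms, no prior filter, and Benjamini-Hochberg adjustment over all genes. Fold changes are on the scale of DESeq2's normalised counts and levels are in TPM, so the sizes can differ. At the level of lines, counts were summed per line and fitted with family and role. The 18 differences between families came from one fit of all libraries. Alternatives were edgeR 4.0.16 (quasi-likelihood), TMM factors, a filter of at least 10 counts in at least 3 libraries, no replicate block, all 33 libraries in one fit, each replicate left out, each family left out, and limma 3.58.1 on log2(TPM + 1) for genes with at least 1 TPM in at least 3 libraries. Leaving out single libraries was added after seeing the data. The DESeq2 test of a pair was checked on counts simulated for the OVCAR3 ResA and OVCAR3 libraries, with the same dispersion for all genes and no replicate effect. The other tests were not checked in this way.

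Same-numbered replicates deviated together (all 3 correlations above 0.1) in 2 of 10 comparisons, OVCAR3 ResA against OVCAR3 and OVCAR4 ResB against OVCAR4 ResA. The replicate block follows the study's methods in all 10. A fold against a line at 0 uses a floor of 3 counts per library, which covers counting error only.

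The 50 genes, the 54 other pathway genes and the marker lists were chosen with earlier results of these data known. Genes described in full had either at least 5 calls in 7 pairs and a line mean of at least 5 TPM, or a called change of at least 3 on the log2 scale at a mean normalised count of at least 100. Other pathway genes were named where they had at least 6 calls or were among the 3 largest changes. Further genes were named after their values were seen.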

Additional observations from a re-analysis of the deposited data

Results flagged for a closer look

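In 21 of the 50 WNT genes, called changes ran in opposite directions in pairs of different families, and the difference itself passed the test (DESeq2, all libraries in one fit, adjusted p under 0.05 over all genes and 18 contrasts). These genes come from the 22 WNT genes already called both ways in the same libraries, so a pass was close to fixed in advance. Of all genes called at least once, 40.7% were called both ways, and how many of them would also pass was not computed. The list is a description. The values are the widest such difference of each gene, on the log2 scale.

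Among ligands, the difference was 12.22 for WNT7A, between OVCAR3 ResA and PEO6. It was 8.785 for WNT5A and 6.4 for WNT7B, each between PEA2 and PEO6. For WNT11 it was 7.966, between PEO4 and OVCAR3 ResA. WNT9A (6.307) and WNT16 (10.74) differed between PEA2 and PEO6, WNT4 (6.881) between PEA2 and OVCAR3 ResA, and WNT3 (2.409) between OVCAR4 ResA and PEO6. WNT4 in every line, WNT16 in every line, and WNT5A and WNT9A in PEA1 and PEA2 were under 1 TPM on average, so the sizes of their differences rest on few counts.

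Among receptors, FZD7 differed by 4.573 between OVCAR4 ResB and PEO6, in 10 contrasts of opposite called changes. FZD1 differed by 6.005 and FZD8 by 3.704, the former between OVCAR4 ResB and OVCAR3 ResA and the latter between OVCAR4 ResA and OVCAR3 ResA. FZD2 differed by 3.13 between OVCAR4 ResB and PEA2, and FZD4 by 5.03 between PEO6 and PEA2. For FZD10 the value was 13.0, between PEA2 and PEO4, with 0 counts in every PEA1 library.

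Among antagonists, SFRP1 differed by 10.21 between OVCAR4 ResB and PEA2 and in 12 contrasts of opposite called changes. DKK1 differed by 4.779 between PEA2 and PEO4, and DKK2 by 10.34 between PEA2 and OVCAR3 ResA. DKK2 had 1 count over the PEA1 libraries and stayed under 1 TPM in PEA2, so the size of its difference rests on few counts too. Of the feedback targets, AXIN2 differed by 9.305 between PEO4 and PEA2. ZNRF3 differed by 1.984 between PEO4 and OVCAR3 ResA, and RNF43 by 2.172 between OVCAR4 ResA and OVCAR3 ResA. Among nuclear effectors, TCF7L1 differed by 6.212 between PEO4 and PEA2.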

How the results depend on the processing

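The 92 calls of the 16 genes described in full were recomputed under the alternatives. Calls of other named genes, such as WNT6, FZD5, FZD8, NKD1, TCF7, CTNNB1, WLS and APCDD1, were not part of this count. Of 849 recomputed values, 750 kept their call, 99 lost it and 0 changed direction. A low-count filter lost 0 of them, TMM factors 1, removing the replicate block 2, all 33 libraries in one fit 4, edgeR 10 and limma on log2(TPM + 1) 17. Leaving out replicate 1, 2 or 3 lost 13, 30 and 17. Losses were most frequent in the OVCAR4 pairs and in OVCAR3 ResB. The number of WNT genes called moved by more than 1.5 times in these cases. With limma it fell from 13 to 4 in OVCAR3 ResB, from 10 to 3 in OVCAR4 ResA, from 11 to 5 in OVCAR4 ResB, from 29 to 19 in PEA2, from 8 to 2 between the OVCAR3 derivatives and from 13 to 6 between PEO6 and PEO4. With edgeR it fell from 10 to 5 in OVCAR4 ResA and from 8 to 5 between the OVCAR3 derivatives. With all 33 libraries in one fit it rose from 10 to 19 in OVCAR4 ResA, from 8 to 15 between the OVCAR3 derivatives and from 13 to 20 between PEO6 and PEO4. Without the replicate block it fell from 20 to 12 between the OVCAR4 derivatives and rose from 13 to 20 between PEO6 and PEO4, and the numbers pair the samples in the former only. Leaving out replicates gave 4 to 11 genes in OVCAR3 ResB, 1 to 13 in OVCAR4 ResA, 4 to 16 in OVCAR4 ResB, 3 to 13 between the OVCAR3 derivatives, 9 to 21 between the OVCAR4 derivatives and 5 to 16 between PEO6 and PEO4. Without replicate 3 of OVCAR3 ResB alone, the count between the OVCAR3 derivatives was 13. With the line as the unit, the count of 1 became 0 with edgeR (4 at an unadjusted p under 0.05), 0 without the OVCAR3 family (5 unadjusted) and 2 without the PEO family, and was 0 to 1 when replicates were left out (4 unadjusted without replicate 3). Without the PEA family the 1 gene called was WNT6, not WNT10A. On log2(TPM + 1), the median over all genes was shifted by 0.472 in OVCAR4 ResB, 0.437 in OVCAR4 ResA, 0.143 in OVCAR3 ResA and 0.112 in OVCAR3 ResB, so TPM levels there read higher than normalised counts. The cause of these changes was not tested. Genes under about 10 counts per library, and those listed at 0, were limited by depth.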

Other observations

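The first replicate of OVCAR4 ResA held more counts of some genes than the rest of its line, chosen here after their values were seen. DKK1 had 10 counts there and 0 in the other two libraries of the line, in OVCAR4 and in OVCAR4 ResB. TCF7 had 147, 19 and 24 counts in the 3 libraries, WNT5B had 9, 1 and 1, and APCDD1 had 26, 0 and 0. CTNNB1 in this library stood at 57.5 TPM against 222 and 214 TPM in the others.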
